A study of Mus musculus with 28 samples.

Results

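The 10 genes described here encode the surfactant proteins and the proteins that assemble, store and recycle surfactant in alveolar type 2 cells. They are Sftpa1, Sftpb, Sftpc, Sftpd, Abca3, Lamp3, Lpcat1, Slc34a2, Napsa and Etv5. Each was taken by its symbol from a table of estimated counts, in which they are 10 of 35880 Ensembl gene identifiers. The table covers 28 messenger RNA libraries from homogenized whole lungs of male wild type C57BL/6 mice, aged 8 to 12 weeks in the sample labels. Co-exposed mice (CB-O3) breathed the oxidant gas ozone at 2 ppm together with carbon black, a soot-like carbon dust, at 10 mg/m3. The other groups breathed ozone alone (O3), carbon black alone (CB) or sham air. Each exposure lasted 3 hours. Day 4 groups received 4 exposures and have 3 libraries each, and day 1 groups received 1 exposure and have 4 libraries each. Libraries are named by their replicate number within a group. Whether each library represents a separate animal is not stated, so the tests compare differences with the spread among libraries, which may be technical. The number of exposures and the day cannot be told apart, and no source used here states how long after the last exposure the lungs were taken.

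Pulmonary surfactant is a film of lipids and proteins that lowers surface tension in the air spaces, and alveolar type 2 cells are its main source. The cells load phospholipids and the small hydrophobic proteins SP-B and SP-C into storage organelles, the lamellar bodies, and secrete them onto the alveolar surface. SP-A and SP-D are larger, water-soluble collectins that bind microbes and take part in clearing surfactant. Type 2 cells also act as progenitors of the alveolar epithelium. Several of these genes are not confined to type 2 cells: club cells of the small airways are known to express Sftpa1, Sftpb and Sftpd, and mature dendritic cells express Lamp3.

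The label of the gene set fits the samples as far as a homogenate can show. All 10 genes were well above the counting limit, with at least 824 counts for Etv5 and 70437 counts for Sftpc in the library where each was lowest. Together they took 2.40% to 3.07% of all counts in a library, and Sftpc alone 1.19% to 1.89%. Levels below are CPM (counts divided by library size and put on a common scale) after TMM normalization, an adjustment that makes libraries of different depth and composition comparable. To order genes by level, CPM were divided by the length of the gene's exons. On that scale, Sftpc led in sham libraries of day 1 with 16086 ± 955 CPM per kilobase (SD, n = 4). Sftpa1 followed with 1701 ± 129, Slc34a2 with 533 ± 20.1, Sftpd with 495 ± 42.0, Sftpb with 321 ± 34.0 and Lamp3 with 256 ± 12.0 CPM per kilobase. The 4 lowest were Napsa with 156 ± 5.75, Lpcat1 with 136 ± 7.19, Abca3 with 71.7 ± 3.70 and Etv5 with 54.2 ± 3.56 CPM per kilobase. Slc34a2 and Sftpd lay within their spread of each other. Their order turned when the longest transcript was used as the length, at 639 CPM per kilobase for Slc34a2 and 662 for Sftpd. Lamp3 and Napsa turned in the same way, at 256 and 266 CPM per kilobase.

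The start regions of 4 of the genes are shown because these genes, described below, either moved together across libraries (Slc34a2, Abca3 and Etv5) or were in no correlated pair that passed (Sftpb). Each line gives the 250 bases before a transcription start listed by RefSeq, on the gene's own strand, on assembly GRCm38.p6. For Slc34a2 this start lies inside the gene, which begins at 53038081 in the GENCODE M21 annotation. The Abca3 and Etv5 regions also run partly into their genes, which begin there at 24351950 and, on the − strand, at 22439719. The regions are chr5:53049103-53049352 on the + strand for Slc34a2, chr17:24351773-24352022 on the + strand for Abca3, chr16:22439571-22439820 on the − strand for the upstream start of Etv5, and chr6:72304360-72304609 on the + strand for Sftpb. Capitals mark matches, on either strand, to 5 letter patterns named after factor families that are known to act in these cells.
Slc34a2: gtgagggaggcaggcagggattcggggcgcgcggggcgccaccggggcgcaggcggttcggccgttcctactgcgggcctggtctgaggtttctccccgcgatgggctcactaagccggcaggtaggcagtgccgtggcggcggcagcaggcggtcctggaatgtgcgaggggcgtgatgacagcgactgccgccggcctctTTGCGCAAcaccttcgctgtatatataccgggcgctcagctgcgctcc
Abca3: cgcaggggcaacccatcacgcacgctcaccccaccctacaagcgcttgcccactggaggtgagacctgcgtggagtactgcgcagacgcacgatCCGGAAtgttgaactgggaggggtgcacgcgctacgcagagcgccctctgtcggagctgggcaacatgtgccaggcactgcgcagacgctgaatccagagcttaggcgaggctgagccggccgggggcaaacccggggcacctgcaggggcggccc
Etv5: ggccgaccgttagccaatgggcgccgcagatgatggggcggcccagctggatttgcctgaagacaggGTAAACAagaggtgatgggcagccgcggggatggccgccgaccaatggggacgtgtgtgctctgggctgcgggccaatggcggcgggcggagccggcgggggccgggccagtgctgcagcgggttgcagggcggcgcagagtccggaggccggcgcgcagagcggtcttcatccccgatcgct
Sftpb: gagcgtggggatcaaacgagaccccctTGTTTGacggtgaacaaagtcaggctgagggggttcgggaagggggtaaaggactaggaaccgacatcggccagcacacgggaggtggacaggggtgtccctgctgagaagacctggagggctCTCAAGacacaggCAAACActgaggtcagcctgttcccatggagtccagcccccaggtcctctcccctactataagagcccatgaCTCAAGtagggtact

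Sftpb held CTCAAG, a core of the NKX2-1 site, at 2 places and TGTTTG, a forkhead core, at 2 places. Slc34a2 held a match to the C/EBP pattern TTGCNNAA, Abca3 the ETS core CCGGAA, and Etv5 the forkhead pattern TGTTTAC in its reverse form. A second RefSeq start of Etv5 held none. Among all 32851 RefSeq start regions of the same length, 13.3% held CTCAAG, 16.0% TGTTTG, 3.17% TGTTTAC, 12.0% CCGGAA and 9.56% TTGCNNAA. The forkhead patterns share the letters TGTTT and differ after them, so no stretch matches both. Start regions were matched for 7 of the 10 genes. Of these, Sftpa1 also held CTCAAG, Lamp3 held TGTTTG and TGTTTAC, and Lpcat1 held none of the 5 patterns. Sftpc, Sftpd and Napsa were not matched. The 4 regions shown differed in base content, with 69.6% G and C for Slc34a2, 67.6% for Abca3, 71.2% for Etv5 and 58.4% for Sftpb, beside a median of 52.4% over all start regions. A pattern of this length is a description of the letters and not evidence of binding.

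Few of the 10 genes changed against sham. Sftpd rose with CB-O3 on both days and with O3 at day 4. Each difference is a log2 fold change with its standard error (SE) from edgeR's quasi-likelihood test, and a gene is called changed at a Benjamini-Hochberg adjusted p under 0.05 over all 14887 genes tested. All 10 genes passed the filter on low counts. At day 4, CB-O3 raised 1 of the 10 genes (Sftpd) relative to sham, where 34.1% of all genes were called in either direction and 17.7% higher. O3 raised 2 (Sftpd and Napsa), where 20.7% were called and 11.7% higher. In the O3 libraries, 5 of the 10 lay above every sham library of that day (Sftpd, Lamp3, Lpcat1, Slc34a2 and Napsa), as did 22.5% of all genes. Sham at day 4 over sham at day 1 was −0.39 for Lamp3, −0.36 for Slc34a2 and −0.20 for Napsa. It was −0.09 for Lpcat1 and −0.03 for Sftpd, and none of these passed. At day 1, CB-O3 raised Sftpb and Sftpd and lowered Etv5, where 19.2% were called, 10.1% higher and 9.09% lower. O3 lowered Sftpc alone, where 11.4% were called and 4.63% lower. For CB, edgeR called 0 of the 10 genes at day 4, where 0.208% of all genes were called, and 0 at day 1, where 1.66% were called. At an unadjusted p under 0.05 the CB counts were 1 at day 4 and 0 at day 1, beside 2266 and 1515 of all genes. DESeq2 called 0 of the 10 on both days and 179 and 310 of all genes, and limma-voom 0 of the 10 and 18 and 180 of all genes. In a homogenate, fewer cells of a type and less RNA per cell cannot be told apart.

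**Figure D1:**
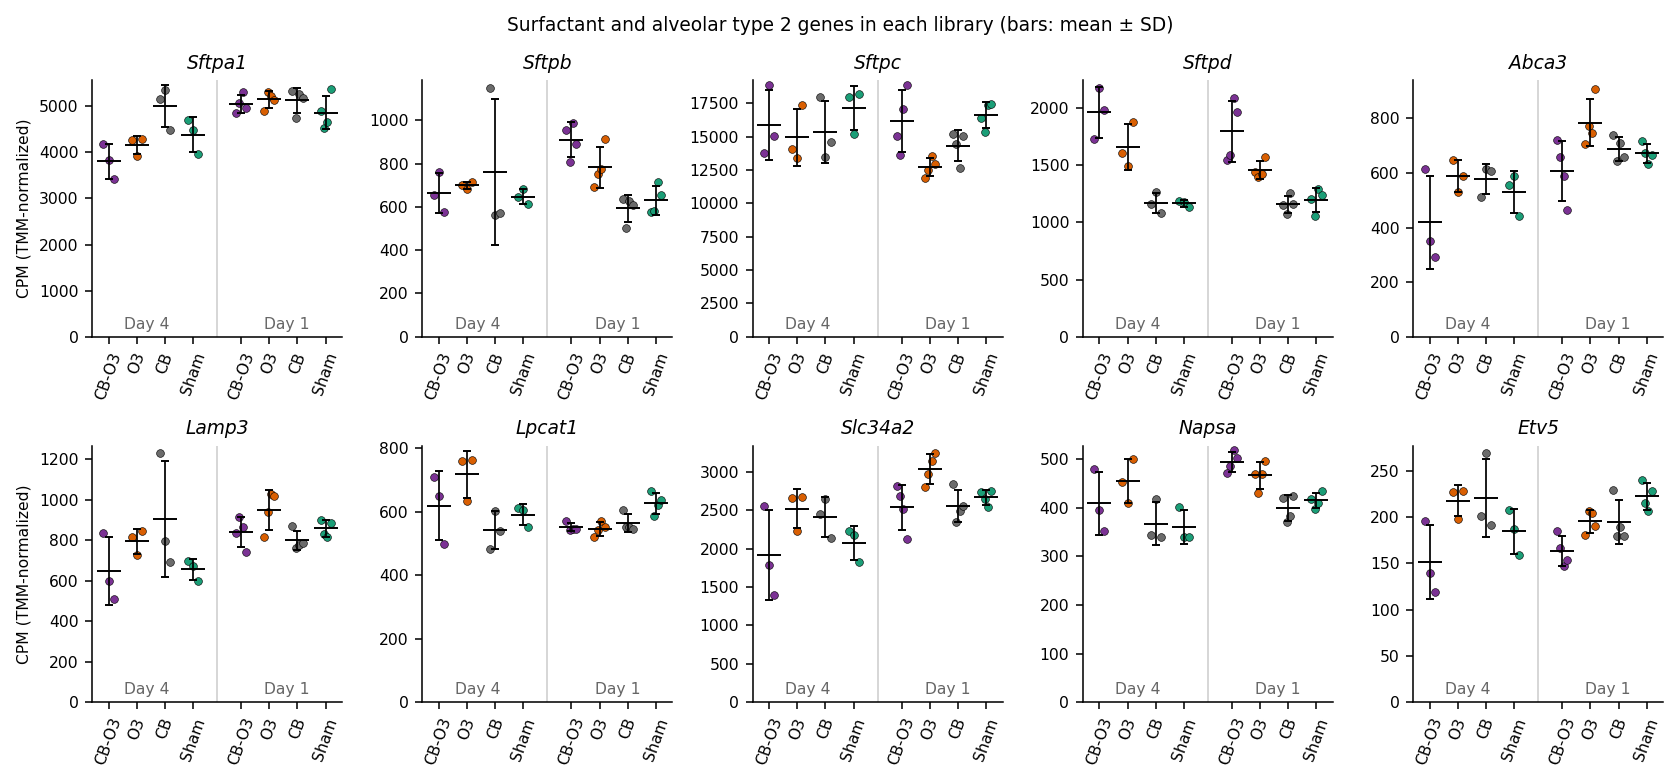
TMM-normalized CPM (vertical axes, from 0) of the 10 genes in each of the 28 libraries, by exposure and day, with bars for the group mean ± SD (n = 3 at day 4, n = 4 at day 1). The Sftpd points of the CB-O3 and O3 groups, at 1398 CPM or more, all sit above those of the CB and sham groups, which reach 1291 CPM, while in most other panels the groups overlap.

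**Figure D2:**
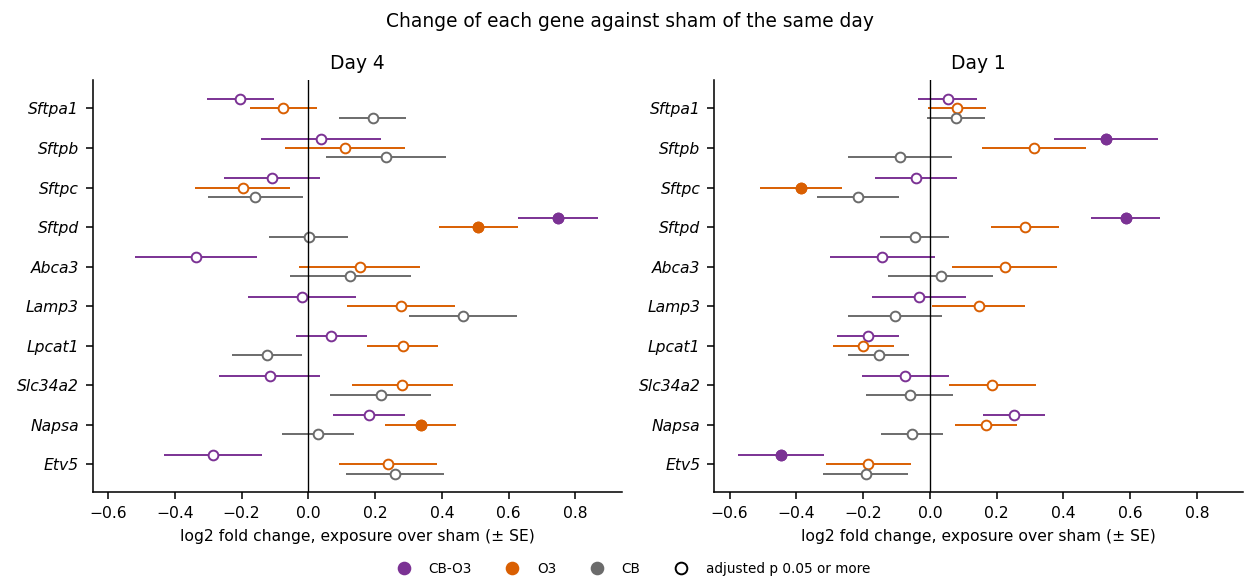
Log2 fold change ± SE of each gene in CB-O3, O3 and CB libraries over sham of the same day. Filled points passed the test (adjusted p under 0.05), and Sftpd has the rightmost filled points, at 0.75 for CB-O3 and 0.51 for O3 on day 4.

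Sftpd, which encodes SP-D, was higher with ozone, with or without carbon black. At day 4 it had 1725, 2174 and 1986 CPM in CB-O3 libraries, against 1188, 1183 and 1134 CPM in sham libraries. The O3 libraries had 1611, 1493 and 1882 CPM. Every CB-O3 and O3 library stood above every sham library, with no overlap, which held for 20.7% of all genes for CB-O3 and 22.5% for O3 in the higher direction. The log2 fold change was 0.75 ± 0.12 (adjusted p = 2.4e-05) for CB-O3 and 0.51 ± 0.12 (adjusted p = 0.0028) for O3. At day 1 the values were 1547, 1591, 2085 and 1963 CPM in CB-O3 libraries, against 1206, 1054, 1291 and 1237 CPM in sham libraries. The 4 O3 libraries had 1443, 1398, 1419 and 1570.3 CPM, again above all sham libraries, as for 12% of all genes in each of the 2 comparisons. The fold change at day 1 was 0.59 ± 0.10 (adjusted p = 0.00023) for CB-O3. For O3 it was 0.28 ± 0.10 and missed the threshold, with an adjusted p of 0.07, while DESeq2 gave 0.28 with an adjusted p of 0.03. In CB libraries Sftpd had 1165, 1263 and 1081 CPM at day 4 and 1152, 1070.0, 1253 and 1163 CPM at day 1, overlapping the sham libraries on both days. Over both days, all 14 CB-O3 and O3 libraries lay above all 14 CB and sham libraries. That separation, in the higher direction, was found for 1.41% of all genes (9.22% at day 4 alone and 3.98% at day 1 alone) and for none of the other 9 surfactant and type 2 genes. These 3 Sftpd calls, CB-O3 on both days and O3 at day 4, held in every alternative run, with CB-O3 fold changes from 0.67 to 0.84 at day 4 and from 0.51 to 0.65 at day 1 when 1 library was left out.

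Sftpa1, the gene of the other collectin SP-A, lies 35.8 kb from Sftpd on chromosome 14 and differed from sham in no group by edgeR's test. Sftpa1 spans 41131782 to 41136452 on the + strand and Sftpd 41172214 to 41185149 on the − strand in GENCODE M21 of GRCm38. At day 4 Sftpa1 had 4175, 3831 and 3416 CPM in CB-O3 libraries and 4275, 3927 and 4284 CPM in O3 libraries, against 4708, 4476 and 3965 CPM in sham libraries. The groups overlapped, and the fold changes of −0.20 ± 0.10 for CB-O3 and −0.07 ± 0.10 for O3 did not pass (adjusted p = 0.12 and 0.65), while DESeq2 called Sftpa1 lower in CB-O3 (−0.21, adjusted p = 0.039). At day 1 the means were 5047 ± 194 CPM in CB-O3, 5149 ± 179.7 CPM in O3 and 5134 ± 271 CPM in CB libraries, against 4865 ± 368 CPM in sham libraries (SD, n = 4 each). Those differences, of 0.05 to 0.08 on the log2 scale, were smaller than their SE of 0.09.

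Sftpb, whose hydrophobic product SP-B is required for lamellar body formation and breathing, was higher at day 1 after co-exposure. It had 953, 807, 988 and 892 CPM in CB-O3 libraries, against 574, 579.7, 714 and 656 CPM in sham libraries. The groups did not overlap, as for 12% of all genes in that direction, and the fold change was 0.53 ± 0.16 (adjusted p = 0.018). The O3 libraries had 690.0, 754, 773 and 915 CPM, overlapping the sham range, with a fold change of 0.31 ± 0.16 that did not pass (adjusted p = 0.21). At day 4 the groups overlapped. Sftpb then had 653, 762 and 578 CPM in CB-O3 and 699.9, 682 and 716 CPM in O3 libraries, against 648, 683 and 612 CPM in sham libraries, with fold changes of 0.04 ± 0.18 (adjusted p = 0.9) and 0.11 ± 0.18 (adjusted p = 0.71). The day 1 call was lost without CB-O3 replicate 3 (0.49, adjusted p = 0.061), without sham replicate 1 (0.49, adjusted p = 0.058) or without sham replicate 2 (0.49, adjusted p = 0.057). The library that stood apart was a CB one. CB replicate 1 of day 4 had 1149 CPM, the highest of the 28, against 562 and 573 CPM in the other 2 CB libraries. The fold change of CB over sham at day 4 was 0.23 ± 0.18, and −0.19 without that library. The same library had the highest Lamp3 level, 1229.5 CPM, and the lowest Lpcat1 level, 482 CPM, of all 28.

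Sftpc, the most type 2 specific of the surfactant protein genes, was lower after a single ozone exposure by a call close to the threshold. At day 1 it had 11884, 12538, 13566 and 12922 CPM in O3 libraries, against 16417, 15323, 17360.1 and 17431 CPM in sham libraries, with no overlap. The fold change was −0.39 ± 0.12 (adjusted p = 0.041). CB-O3 libraries had 15074, 13599, 17092 and 18880.2 CPM, spread around the sham range, and the fold change was −0.04 ± 0.12 (adjusted p = 0.86). CB libraries had 15185, 14436, 12645 and 15021 CPM, also all below the sham libraries, with a fold change of −0.22 ± 0.12 (adjusted p = 0.6). The 9.23% of all genes that were lower without overlap for O3, and 3.58% for CB, are the background of these separations. At day 4 all groups overlapped. Sftpc then had 13761, 18849 and 15057 CPM in CB-O3, 14080.1, 13413 and 17370.5 CPM in O3 and 17983, 13472 and 14588 CPM in CB libraries, against 18003, 15226 and 18169 CPM in sham libraries. Among 8 fits that left out 1 library the day 1 call remained only without sham replicate 2 (adjusted p = 0.049), and in the 7 fits without any other O3 or sham library the adjusted p was up to 0.10.

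Abca3, the lipid transporter of the lamellar body membrane, had its lowest levels in 2 co-exposed libraries of day 4. The CB-O3 libraries had 613, 352 and 293 CPM, against 555, 591 and 444 CPM in sham libraries. The first CB-O3 library stood above the sham range and the other 2 below it. The fold change of −0.34 ± 0.18 did not pass (adjusted p = 0.16), and without CB-O3 replicate 1 it was −0.71 (adjusted p = 0.00079). Without CB-O3 replicate 3 it was −0.13 (adjusted p = 0.62). That library had the lowest level of 5 of the 10 genes (Sftpa1, Abca3, Lamp3, Slc34a2 and Etv5). At 421 CPM in sum, it was also 1 of 4 libraries with over 200 CPM of skeletal muscle and brown fat genes. Without those 4 libraries, Abca3 in CB-O3 over CB at day 4 was −0.23 (adjusted p = 0.44), against −0.46 with all libraries. The part of muscle and brown fat RNA itself was not tested. O3 libraries had 649, 529 and 591 CPM and CB libraries 514, 614 and 606 CPM at day 4. At day 1 Abca3 had 722, 657, 588 and 466 CPM in CB-O3 libraries, 708, 774, 749 and 907 CPM in O3 libraries and 738, 643, 709 and 659 CPM in CB libraries, against 716, 673, 632 and 666 CPM in sham libraries. The highest level of the 28 was in O3 replicate 4 of day 1. In the annotation Abca3 overlaps 2 genes of the opposite strand, D330041H03Rik at its end and the small nuclear RNA gene Gm25618, neither with a row in the table. Slc34a2 and Napsa each overlap an antisense gene without a row, Gm17182 and Gm15396. The library kit keeps strand, and no source used here says whether the quantification used it.

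Slc34a2, the sodium phosphate cotransporter of the type 2 cell surface, ran in parallel with Abca3. At day 4 it had 2557, 1787 and 1399 CPM in CB-O3 and 2663, 2234 and 2671 CPM in O3 libraries, against 2225, 2178 and 1823 CPM in sham libraries. All 3 O3 libraries were above sham, as for 22.5% of all genes, and the CB-O3 libraries lay on both sides. The fold changes were −0.12 ± 0.15 (adjusted p = 0.58) for CB-O3 and 0.28 ± 0.15 (adjusted p = 0.19) for O3. Without CB-O3 replicate 1, the CB-O3 value was −0.37 and passed (adjusted p = 0.034), and without CB-O3 replicate 3 it turned to 0.07 (adjusted p = 0.77). At day 1 it had 2814, 2684, 2518 and 2132 CPM in CB-O3, 2798, 2970.5, 3138 and 3246 CPM in O3 and 2841, 2353, 2485 and 2557 CPM in CB libraries, against 2737, 2648, 2536 and 2757 CPM in sham libraries. The O3 libraries again stood above all sham libraries, as for 12% of all genes, but the fold change of 0.19 ± 0.13 did not pass (adjusted p = 0.39).

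Lamp3, a glycoprotein of the lamellar body membrane, did not pass against sham in any group. At day 4 it had 837, 598 and 510.4 CPM in CB-O3, 816, 726 and 844 CPM in O3 and 1229.5, 797 and 691 CPM in CB libraries, against 698, 673 and 598 CPM in sham libraries. All O3 libraries lay above the sham range, as for 22.5% of all genes, and CB libraries overlapped it at 691 CPM. The CB fold change was 0.46 ± 0.16 (adjusted p = 0.18). It was 0.18 without CB replicate 1, and passed without CB replicate 3 (0.64, adjusted p = 0.033). At day 1 the means were 839 ± 73 CPM in CB-O3, 949.9 ± 98.3 CPM in O3 and 799 ± 49.2 CPM in CB libraries, against 859 ± 40.4 CPM in sham libraries (SD, n = 4 each).

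Lpcat1, the acyltransferase that makes the main surfactant phospholipid, was the only one of the 10 whose ozone difference itself was called different between days. At day 4 it had 759.8, 634 and 764 CPM in O3 libraries, against 613, 607 and 553 CPM in sham libraries, so O3 was above without overlap. At day 1 it had 520.5, 543, 572 and 552 CPM in O3 libraries, against 666, 586, 623 and 636 CPM in sham libraries, so O3 was below without overlap. Such separations, each in its direction, held for 22.5% of all genes at day 4 and 9.23% at day 1. Neither difference passed alone in edgeR's fit over all libraries, at 0.28 ± 0.11 (adjusted p = 0.058) for day 4 and −0.20 ± 0.09 (adjusted p = 0.17) for day 1. The day 4 difference was called by DESeq2 (adjusted p = 0.028), without O3 replicate 2 (0.36, adjusted p = 0.035) and without the 4 muscle-rich libraries (adjusted p = 0.036). The O3 difference at day 4 minus that at day 1 was 0.48 ± 0.14 (adjusted p = 0.048), where 4.24% of all genes were called and 2.36% higher. This call depended on the libraries: of 14 fits without 1 library, it remained only without O3 replicate 2 of day 4, and the adjusted p of the others reached 0.15. CB-O3 libraries had 709, 651 and 499.7 CPM at day 4 and 571, 544, 547 and 546 CPM at day 1. All 4 CB-O3 libraries of day 1 were below all sham libraries, as for 10.4% of all genes in that direction, with a fold change of −0.19 ± 0.09 (adjusted p = 0.17).

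Napsa, the aspartic protease that trims the precursors of SP-B and SP-C, was higher with O3 at day 4. It then had 454, 411 and 501 CPM in O3 libraries, against 401, 341 and 339 CPM in sham libraries. There was no overlap, as for 22.5% of all genes in that direction, and the fold change was 0.34 ± 0.11 (adjusted p = 0.026). The call was lost without O3 replicate 1 (0.34, adjusted p = 0.063), O3 replicate 3 (0.25, adjusted p = 0.15), sham replicate 2 (0.29, adjusted p = 0.11) or sham replicate 3 (0.29, adjusted p = 0.11). The CB-O3 libraries of day 4 had 480.0, 396 and 352 CPM and overlapped sham. At day 1 Napsa had 473, 486, 518 and 502 CPM in CB-O3 libraries, against 418, 399, 409 and 435 CPM in sham libraries. That separation was complete, as for 12% of all genes, while the fold change of 0.25 ± 0.09 missed the threshold (adjusted p = 0.057). It was called by DESeq2 (adjusted p = 0.034), with only the compared groups (adjusted p = 0.029) and with the club cell level as a covariate (adjusted p = 0.043).

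Etv5, an ETS transcription factor that acts below fibroblast growth factor signalling and maintains type 2 identity, was lower after a single co-exposure. At day 1 it had 185, 167, 147 and 153 CPM in CB-O3 libraries, against 239.6, 215, 206 and 228 CPM in sham libraries. The groups did not overlap, as for 10.4% of all genes in that direction. The fold change was −0.45 ± 0.13 (adjusted p = 0.015), and the call was lost without CB-O3 replicate 3 (−0.40, adjusted p = 0.061). O3 libraries had 181, 206, 205 and 190.2 CPM and CB libraries 229, 179, 189 and 179.6 CPM, both overlapping the sham range. Their fold changes were −0.18 ± 0.13 (adjusted p = 0.39) for O3 and −0.19 ± 0.13 (adjusted p = 0.67) for CB. The departure of CB-O3 from the sum of these 2 was −0.07 ± 0.18 (adjusted p = 0.87). At day 4 the values were 196, 139 and 119 CPM in CB-O3, 227, 198 and 228 CPM in O3 and 201, 269 and 191 CPM in CB libraries, against 207, 187 and 159 CPM in sham libraries. The fold change of CB-O3 at day 4 was −0.29 ± 0.15 (adjusted p = 0.14), and −0.51 (adjusted p = 0.0076) without CB-O3 replicate 1, but −0.14 (adjusted p = 0.54) without CB-O3 replicate 3.

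Whether the particle changes the ozone response was tested by CB-O3 against O3 and by the interaction, the departure of co-exposure from the sum of both single effects on the log scale. At day 4 edgeR called 0 of the 10 genes between CB-O3 and O3, and 0% of all genes. At an unadjusted p under 0.05 the counts were 3 of the 10 and 2991 of all genes, DESeq2 called 1 of the 10 (Etv5) and 475 genes, and limma-voom 0 of the 10 and 96 genes. Etv5 was lower in every CB-O3 library than in every O3 library, as were 9.75% of all genes. The differences with an unadjusted p under 0.05 were −0.53 ± 0.15 for Etv5, −0.49 ± 0.18 for Abca3 and −0.40 ± 0.15 for Slc34a2. Without CB-O3 replicate 1, edgeR called 4 of the 10, all lower in CB-O3: Abca3 at −0.86, Etv5 at −0.74, Slc34a2 at −0.65 and Lamp3 at −0.51. In that fit 2769 of 15092 genes were called. Without CB-O3 replicate 3 the same values were −0.29, −0.38, −0.22 and −0.15, with 0 of the 10 and 0 of 15054 genes called. At day 1 the count was again 0 of the 10 and 0% of all genes by edgeR, with 3 of the 10 and 2337 genes at an unadjusted p under 0.05 and, by DESeq2, 0 of the 10 and 39 genes; limma-voom called 0 and 0. Sftpc was then higher in every CB-O3 library than in every O3 library, at 0.34 ± 0.12 (adjusted p = 0.22), a separation found for 5.13% of all genes. Sftpd differed by 0.24 ± 0.12 at day 4 and 0.30 ± 0.10 at day 1 (adjusted p = 0.25 and 0.21).

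The interaction was not called for any of the 10 genes by edgeR, where 1.37% of all genes were called at day 4 and 1.46% at day 1. At day 4, 5 of the 10 and 3466 of all genes had an unadjusted p under 0.05. DESeq2 called 3 of the 10 (Etv5, Lamp3 and Slc34a2) and 1039 of all genes, and limma-voom 0 of the 10 and 140 of all genes. The edgeR values were −0.78 ± 0.21 for Etv5 (adjusted p = 0.052), −0.76 ± 0.23 for Lamp3 (adjusted p = 0.070) and −0.61 ± 0.21 for Slc34a2 (adjusted p = 0.094). Without CB-O3 replicate 1 of day 4, edgeR called Abca3 at −0.995, Etv5 at −1.01, Lamp3 at −0.99 and Slc34a2 at −0.88, with 2979 of 15092 genes called. Without CB replicate 3, edgeR called Etv5 at −0.88 and Lamp3 at −0.92 (1293 of 15089 genes called), and without sham replicate 1 Etv5 at −0.88 (238 of 15101). In the other direction, Abca3 was −0.41 and Slc34a2 −0.43 without CB-O3 replicate 3, Lamp3 −0.48 without CB replicate 1 and Etv5 −0.61 without CB replicate 2, none called. At day 1, 2 of the 10 and 2893 of all genes had an unadjusted p under 0.05, and DESeq2 called 1 of the 10 (Sftpc) and 524 of all genes. Its edgeR interaction was 0.56 ± 0.17 (adjusted p = 0.091), and 0.63 (adjusted p = 0.046, with 471 of 14885 genes called) without CB-O3 replicate 2. limma-voom called 0 of the 10 and 156 of all genes.

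Against CB, Sftpd was higher in co-exposed libraries on both days and 4 genes were lower at day 4. At day 4 edgeR called 5 of the 10 genes between CB-O3 and CB, where 38.2% of all genes were called, 19.3% higher and 18.9% lower. Sftpd was higher at 0.75 ± 0.12 (adjusted p = 2.5e-05). Sftpa1, at −0.40 ± 0.10 (adjusted p = 0.0031), was lower in every CB-O3 than in every CB library, as for 17.5% of all genes. Etv5 was lower at −0.54 ± 0.15 (adjusted p = 0.005), Lamp3 at −0.48 ± 0.16 (adjusted p = 0.021) and Abca3 at −0.46 ± 0.18 (adjusted p = 0.047). None of these 4 lower genes was called by edgeR against sham of that day. Over sham, CB-O3 was at −0.20 for Sftpa1, −0.29 for Etv5, −0.02 for Lamp3 and −0.34 for Abca3. CB was at 0.19, 0.26, 0.46 and 0.13 for the same genes. The Sftpd and Sftpa1 calls held in all 6 fits that left out 1 library, while those of Lamp3, Abca3 and Etv5 were lost in some. Lamp3 was −0.20 without CB replicate 1, −0.43 without CB-O3 replicate 2 and −0.33 without CB-O3 replicate 3, none called. Abca3 was −0.42 and −0.43 without CB replicate 2 or 3, and −0.35 and −0.26 without CB-O3 replicate 2 or 3, none called, but −0.84 without CB-O3 replicate 1. Without the 4 muscle-rich libraries Abca3 was −0.23 (adjusted p = 0.44). Etv5 was −0.38 without CB replicate 2 (adjusted p = 0.063) and −0.40 without CB-O3 replicate 3 (adjusted p = 0.053), neither called. Slc34a2 at −0.33 ± 0.15 (adjusted p = 0.083) passed without CB-O3 replicate 1 (−0.60), and Lpcat1 passed, higher, without CB-O3 replicate 3 (0.33). When only the 2 groups entered the fit, Sftpd alone was called. At day 1, 3 of the 10 genes were higher in CB-O3, where 25.9% of all genes were called and 13.1% higher. They were Sftpb at 0.62 ± 0.16 (adjusted p = 0.0047), Sftpd at 0.63 ± 0.10 (adjusted p = 6.2e-05) and Napsa at 0.31 ± 0.09 (adjusted p = 0.017). Napsa was lost without CB-O3 replicate 3 (0.28, adjusted p = 0.056) or CB replicate 2 (0.27, adjusted p = 0.056). All 3 separated the groups without overlap, as did 14% of all genes in that direction.

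Between days, the changes in the exposure differences gave no call beyond that of Lpcat1. For CB-O3 edgeR called 0 of the 10 (10.2% of all genes), with 1 of the 10 and 3676 genes at an unadjusted p under 0.05, and for CB 0 (0.094% of all genes), with 2 of the 10 and 1248 genes. Sham libraries of day 4 against those of day 1 gave 0 of the 10 and 0% of all genes, with 2 of the 10 and 1473 genes at an unadjusted p under 0.05. DESeq2 and limma-voom called 0 of the 10 in these 3 comparisons, and of all genes 1759 and 1490 for CB-O3, 36 and 12 for CB and 0 and 0 for sham. The sham difference was −0.39 ± 0.15 for Lamp3, −0.36 ± 0.14 for Slc34a2 and −0.34 ± 0.17 for Abca3, while Sftpc was at 0.04 ± 0.13.

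Some of the genes were joined by pairwise correlations that passed the adjustment, and others were not. After each group's mean was removed, Abca3 and Slc34a2 correlated over the 28 libraries with r = 0.89 and rho = 0.83 (within-group permutation p = 0.00017 and 0.00013; adjusted 0.0026 and 0.0019). Without the 2 libraries farthest from the median of Abca3, r was 0.78. Slc34a2 and Etv5 gave r = 0.87 and rho = 0.83 (permutation p = 3e-05 and 5e-05; adjusted 0.0014 and 0.0014), with r = 0.79 without the 2 farthest. Lpcat1 and Etv5 gave r = 0.82 and rho = 0.80 (permutation p = 8e-05 and 6e-05; adjusted 0.0018 and 0.0014), with r = 0.73 without the 2 farthest. In all, 45 pairs were computed and adjusted together, and 15 had an adjusted p of r under 0.05, all positive and all among Sftpa1, Abca3, Lamp3, Lpcat1, Slc34a2, Napsa and Etv5. Sftpb, Sftpc and Sftpd were in none of them. Not every pair among the named genes passed, and Lamp3 and Lpcat1 gave r = 0.34 (permutation p = 0.36, adjusted 0.54). Sftpb and Lamp3 gave a larger r of 0.64 that did not pass either (permutation p = 0.071, adjusted 0.15). Sftpc and Sftpd gave r = 0.54 and rho = 0.47 (permutation p = 0.032 and 0.05; adjusted 0.084 and 0.11). Sftpc and Abca3 gave r = −0.48 and rho = −0.50 (permutation p = 0.084 and 0.04; adjusted 0.17 and 0.095). The points share their libraries' scaling, so a correlation between genes of 1 library includes any error in it.

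**Figure D3:**
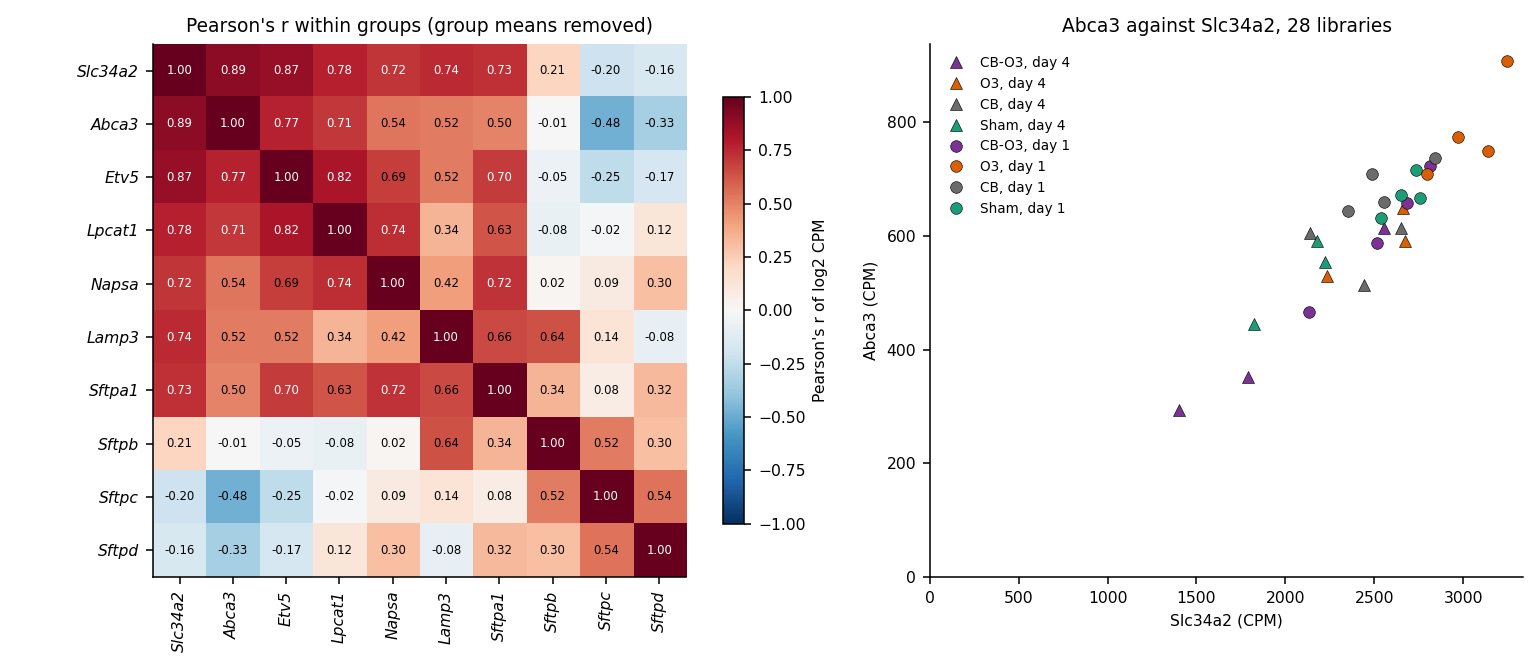
Left, Pearson's r of log2 CPM for each pair of the 10 genes over the 28 libraries after group means were removed. Right, Abca3 against Slc34a2 in CPM, 1 point per library, where the lowest points are CB-O3 replicates 2 and 3 of day 4, at 352 and 293 CPM of Abca3.

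Each of the 10 genes was set against the summed level of 17 gene lists in the same way, 170 relations adjusted together, and 3 had an adjusted p of r under 0.05. They joined the list of 14 further type 2 markers with Lamp3 (r = 0.78, rho = 0.76; permutation p = 0.00015 and 0.0002; adjusted 0.024 and 0.022), Slc34a2 (r = 0.78, rho = 0.74; permutation p = 0.00028 and 0.00026; adjusted 0.024 and 0.022) and Sftpa1 (r = 0.71, rho = 0.66; permutation p = 0.00045 and 0.0012; adjusted 0.026 and 0.067). Without the 2 libraries farthest from the median of that list, r was 0.73, 0.74 and 0.66. Next was Abca3 with the genes of GM-CSF signalling and macrophage clearance (r = 0.74, rho = 0.65; permutation p = 0.0013 and 0.0033; adjusted 0.055 and 0.069), with r = 0.71 without the 2 farthest.

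Markers of club cells, the secretory cells of the small airways, ran against Abca3 and Slc34a2, by correlations that did not pass the adjustment. The summed level of 9 club cell genes at day 4 was 23566, 47708 and 52991 CPM in CB-O3 libraries and 25668, 28963 and 26177 CPM in O3 libraries, against 45279, 50606 and 59579 CPM in sham libraries. The 2 CB-O3 libraries with low Abca3, Slc34a2 and Etv5 are thus those with the higher club cell sums. Within groups, the club cell sum gave r = −0.73 and rho = −0.58 with Abca3 (permutation p = 0.0088 and 0.012; adjusted over the 170 relations 0.11 and 0.13). For Slc34a2 it was r = −0.71 and rho = −0.61 (permutation p = 0.0055 and 0.006; adjusted 0.11 and 0.093), and for Lamp3 r = −0.55 and rho = −0.52 (permutation p = 0.0075 and 0.014; adjusted 0.11 and 0.14). Without the 2 libraries farthest from the median club cell sum, both CB-O3 of day 4, r was −0.52 for Abca3, −0.49 for Slc34a2 and −0.33 for Lamp3. Sftpd gave r = 0.52 and rho = 0.45 (permutation p = 0.044 and 0.054; adjusted 0.19 and 0.23). The ciliated cell sum gave r = −0.58 and rho = −0.41 with Abca3 (permutation p = 0.042 and 0.082; adjusted 0.19 and 0.29) and r = −0.60 and rho = −0.48 with Slc34a2 (permutation p = 0.02 and 0.029; adjusted 0.13 and 0.17), with r = −0.46 and −0.50 without the 2 farthest. With the club cell level as a covariate, a fit added after the data were seen, the Sftpd fold changes over sham called before remained so and that of O3 at day 1 passed (0.34, adjusted p = 0.024), while the Napsa call in O3 at day 4 was lost (0.25, adjusted p = 0.17). Abca3 was then called lower in CB-O3 at day 4 (−0.47, adjusted p = 0.033). The part of club cell RNA in these levels was not tested further.

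**Figure D4:**
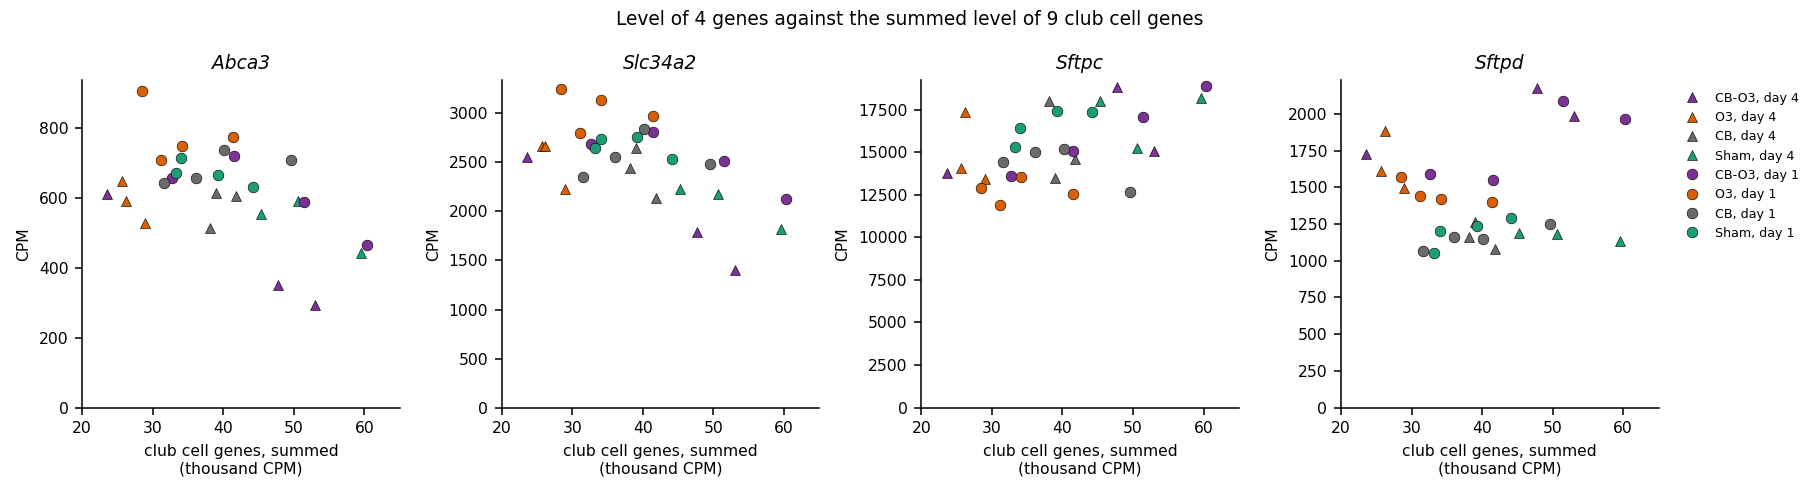
CPM of Abca3, Slc34a2, Sftpc and Sftpd (vertical axes, from 0) against the summed CPM of 9 club cell genes (axis divided by 1000), 1 point per library, coloured by exposure and shaped by day. Abca3 and Slc34a2 run down to the right, and the CB-O3 and O3 points of Sftpd lie above those of CB and sham at any club cell sum.

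Genes elsewhere in the genome were ranked by correlation with the mean of the 10 genes' standardised log2 CPM over the 28 libraries, as a description over 14877 genes. The highest were Cxcl15 (r = 0.83), a lung chemokine of type 2 cells, and Dram1 (0.82), followed by Sgpp2 (0.80), Sptlc2 (0.79), Arf6 (0.78), Col6a1 (0.78), Slc26a9 (0.77) and Lrch4 (0.76). With group means removed, Dram1 stood at 0.85, Sgpp2 at 0.83 and Cxcl15 at 0.82, while Lrch4 stood at 0.66. The lowest were Flrt1 (−0.70), Adamts5 (−0.69), B3gnt4 (−0.69) and Psme2b (−0.69). The libraries fall into 8 groups, so these values mix differences between groups with those within them. A gene that follows the mean need not follow each of the 10. The list of further type 2 markers, which holds Cxcl15 and Dram1, gave r = −0.03 with Sftpc and 0.29 with Sftpd over the 28 libraries.

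Other genes of the surfactant system were called in both directions. The counts in this and the following lists stand beside these shares over all genes. With CB-O3, 34.1% were called at day 4 (17.7% higher) and 19.2% at day 1 (10.1% higher, 9.09% lower). With O3, 20.7% were called at day 4 (11.7% higher) and 11.4% at day 1 (4.63% lower). A count near its share says nothing particular about the list. Of 14 further type 2 markers, 3 rose and 3 fell with CB-O3 at day 4, 4 rose and 2 fell with O3 at day 4, 1 rose and 4 fell with CB-O3 at day 1, and 1 passed with O3 at day 1, lower. Over all alternatives run, the higher count with O3 at day 4 ran from 2 to 5, and the counts with O3 at day 1 from 0 to 2 higher and 1 to 4 lower. Their medians, from −0.05 to 0.15, stand beside medians of −0.01 to 0.01 over all genes. Muc1, a membrane mucin, was higher at day 4, at 1.07 ± 0.19 (adjusted p = 0.00013) with CB-O3 and 0.99 ± 0.19 (adjusted p = 0.0006) with O3. Acoxl was lower, at −1.27 ± 0.17 (adjusted p = 1.9e-06) and −0.59 ± 0.16 (adjusted p = 0.01), and Bex2 at −1.34 ± 0.25 (adjusted p = 0.00018) and −0.94 ± 0.24 (adjusted p = 0.0066). The Acoxl call with O3 was lost without O3 replicate 2 (−0.44, adjusted p = 0.091). Ppp1r14c was lower at day 1, at −0.53 ± 0.09 (adjusted p = 0.0002) and −0.56 ± 0.09 (adjusted p = 0.00023).

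Of 9 genes of surfactant processing and turnover, 2 rose and 1 fell with CB-O3 at day 4, 2 rose and 2 fell with O3 at day 4, and 2 with CB-O3 and 3 with O3 passed at day 1, all higher. The lower count with O3 at day 4 ran from 0 to 2 over the alternatives. Ctsh, whose product cathepsin H is known to cut the SP-B precursor, rose in all 4 comparisons. Its fold change was 1.16 ± 0.16 (adjusted p = 3.6e-06) with CB-O3 and 1.12 ± 0.16 (adjusted p = 1.2e-05) with O3 at day 4, and 1.00 ± 0.14 (adjusted p = 1.4e-05) and 0.85 ± 0.14 (adjusted p = 0.00019) at day 1, larger than that of any of the 10 genes. Macrophages also express Ctsh. Adgrf5, a receptor that restrains the surfactant pool and is also found on endothelium, was lower at day 4, at −1.05 ± 0.19 (adjusted p = 0.00016) and −0.63 ± 0.19 (adjusted p = 0.02). The O3 call was lost without any 1 O3 library or sham replicate 1, at −0.64 to −0.53. All 8 endothelial markers were called lower with CB-O3 at day 4 and 7 of 8 with O3. Prdx6, a peroxidase with phospholipase activity on surfactant lipid, was higher at day 1, at 0.72 ± 0.12 (adjusted p = 0.00019) and 0.59 ± 0.12 (adjusted p = 0.0023). At day 4 it was at −0.35 ± 0.14 (adjusted p = 0.059) with CB-O3 and −0.41 ± 0.14 (adjusted p = 0.044) with O3, and this O3 call was lost without any 1 of the 6 libraries, at −0.45 to −0.38. The phospholipid flippase gene Atp11a was higher with O3, at 0.84 ± 0.15 (adjusted p = 0.00023) at day 4.

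Among 16 genes of fatty acid and phosphatidylcholine synthesis, 2 rose and 2 fell with CB-O3 at day 4 and 3 rose and 2 fell with O3. At day 1, 5 passed with CB-O3, all lower, and 1 rose and 3 fell with O3. Over the alternatives, the higher count with O3 at day 4 ran from 2 to 5 and the lower count with CB-O3 at day 1 from 3 to 6. The list median was −0.44 with CB-O3 and −0.20 with O3 at day 1. Among sham libraries of day 1 the list sum was highest in replicate 2, at 9285 CPM against 7666, 6642 and 6560 CPM. That library also had 1075 CPM of muscle and brown fat genes, and its part in these medians was not tested. Chpt1, the enzyme of the last step of phosphatidylcholine synthesis, was lower at day 1, at −0.52 ± 0.11 (adjusted p = 0.0014) and −0.48 ± 0.11 (adjusted p = 0.0045). Fabp5, a fatty acid binding protein, was lower at day 1, at −0.60 ± 0.11 (adjusted p = 0.00051) and −0.58 ± 0.11 (adjusted p = 0.0013). Lpin1, a phosphatidate phosphatase, was lower at day 4, at −0.60 ± 0.14 (adjusted p = 0.0022) and −0.72 ± 0.14 (adjusted p = 0.0007). Acsl4, which activates long fatty acids, was higher at day 4, at 0.72 ± 0.16 (adjusted p = 0.0012) and 0.90 ± 0.16 (adjusted p = 0.00022), and the CB-O3 value was 0.45, adjusted p = 0.018 without CB-O3 replicate 1. These enzymes are made by many lung cell types.

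Of 9 transcription factors of type 2 cells, 2 rose and 2 fell with CB-O3 at day 4, 2 passed with O3 at day 4, both lower, 1 rose and 1 fell with CB-O3 at day 1, and 2 passed with O3 at day 1, both lower. Over the alternatives, the higher count with CB-O3 ran from 1 to 4 at day 4 and from 0 to 3 at day 1, and the lower count with O3 at day 1 from 0 to 2. Foxa2 was higher with CB-O3 at 0.61 ± 0.14 (adjusted p = 0.0016) at day 4, Tfcp2l1 lower at −0.69 ± 0.14 (adjusted p = 0.00059), and Cebpd lower at −0.77 ± 0.24 (adjusted p = 0.014) with CB-O3 and −1.16 ± 0.24 (adjusted p = 0.0011) with O3. The Cebpd call with CB-O3 was lost without CB-O3 replicate 3 (−0.63, adjusted p = 0.08) or sham replicate 3 (−0.64, adjusted p = 0.069). Of 12 genes of the fibroblast growth factor pathway in which Etv5 acts, 1 rose and 4 fell with CB-O3 at day 4 and 1 rose and 3 fell with O3. At day 1, 1 rose and 3 fell with CB-O3 and 4 rose and 1 fell with O3. Over the alternatives, the lower counts at day 4 ran from 3 to 6 with CB-O3 and from 1 to 4 with O3, and the higher count with O3 at day 1 from 2 to 4. The call in the higher direction was Etv4 for CB-O3 on both days and for O3 at day 4; Etv4 encodes another ETS factor close to Etv5. Etv4 averaged 3.68 ± 1.63 CPM in CB-O3 and 2.89 ± 1.41 CPM in O3 libraries, against 0.29 ± 0.0435 CPM in sham libraries at day 4 (SD, n = 3 each), with adjusted p of 7.8e-06 and 6.2e-05. The sham level is about that of 3 counts in a library, 0.309 to 0.584 CPM, so no fold is given. The ligand gene Fgf10 was lower, at −1.31 ± 0.19 (adjusted p = 9.8e-06) and −0.67 ± 0.19 (adjusted p = 0.011), the O3 call being lost without O3 replicate 2 (−0.54, adjusted p = 0.08) or sham replicate 1 (−0.53, adjusted p = 0.07). The feedback inhibitor Spry1 was lower at −0.46 ± 0.10 (adjusted p = 0.00074) and −0.39 ± 0.10 (adjusted p = 0.0047).

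Of 12 genes of GM-CSF signalling and macrophage clearance of surfactant, 3 passed with CB-O3 and 3 with O3 at day 4, all higher. At day 1, 2 passed with CB-O3, both lower, and 1 rose and 1 fell with O3. The higher count with O3 at day 4 ran from 3 to 5 over the alternatives. Csf2rb, the shared chain of the GM-CSF receptor, was higher at day 4, at 1.02 ± 0.22 (adjusted p = 0.00079) and 1.20 ± 0.22 (adjusted p = 0.00029); its reads may be divided with those of the near-identical gene Csf2rb2. Chil3, a lectin of alveolar macrophages, was higher at 1.13 ± 0.30 (adjusted p = 0.0052) and 1.38 ± 0.30 (adjusted p = 0.0018), the CB-O3 call being lost without CB-O3 replicate 1 (0.65, adjusted p = 0.069). The sterol transporter Abcg1 was lower at day 1 with CB-O3, at −0.88 ± 0.16 (adjusted p = 0.00031).

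Genes of the 2 states that type 2 cells can enter are given next. Of 14 genes of transitional epithelium, the keratin-rich state between type 2 and type 1 cells, 12 rose with CB-O3 and 11 rose and 1 fell with O3 at day 4, and 11 rose in each group at day 1. Krt8 was higher at 1.56 ± 0.15 (adjusted p = 1.9e-08) and 1.17 ± 0.15 (adjusted p = 2.6e-06) at day 4. The list medians ran from 0.93 to 1.23, against −0.06 to 0.26 for the 10 genes in the same 4 comparisons. Over the 28 libraries Sftpd gave r = 0.91 with the summed level of this list and 0.88 with that of 7 pan-epithelial genes. Those values mix differences between groups with those within them. With group means removed, r was 0.55 for each, and neither relation passed the adjustment. Airway cells also express many of these genes. Of 11 alveolar type 1 genes, 2 rose and 2 fell with CB-O3 and 2 rose and 1 fell with O3 at day 4, and 3 passed with CB-O3 and 1 with O3 at day 1, all higher. Over the alternatives, the lower count with CB-O3 at day 4 ran from 0 to 2 and the higher count with O3 at day 4 from 2 to 4. The water channel gene Aqp5 was higher at 0.58 ± 0.12 (adjusted p = 0.00041) and 0.50 ± 0.12 (adjusted p = 0.0032) at day 4, while Hopx was higher at day 1 with CB-O3, at 0.52 ± 0.10 (adjusted p = 0.00085).

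**Figure D5:**
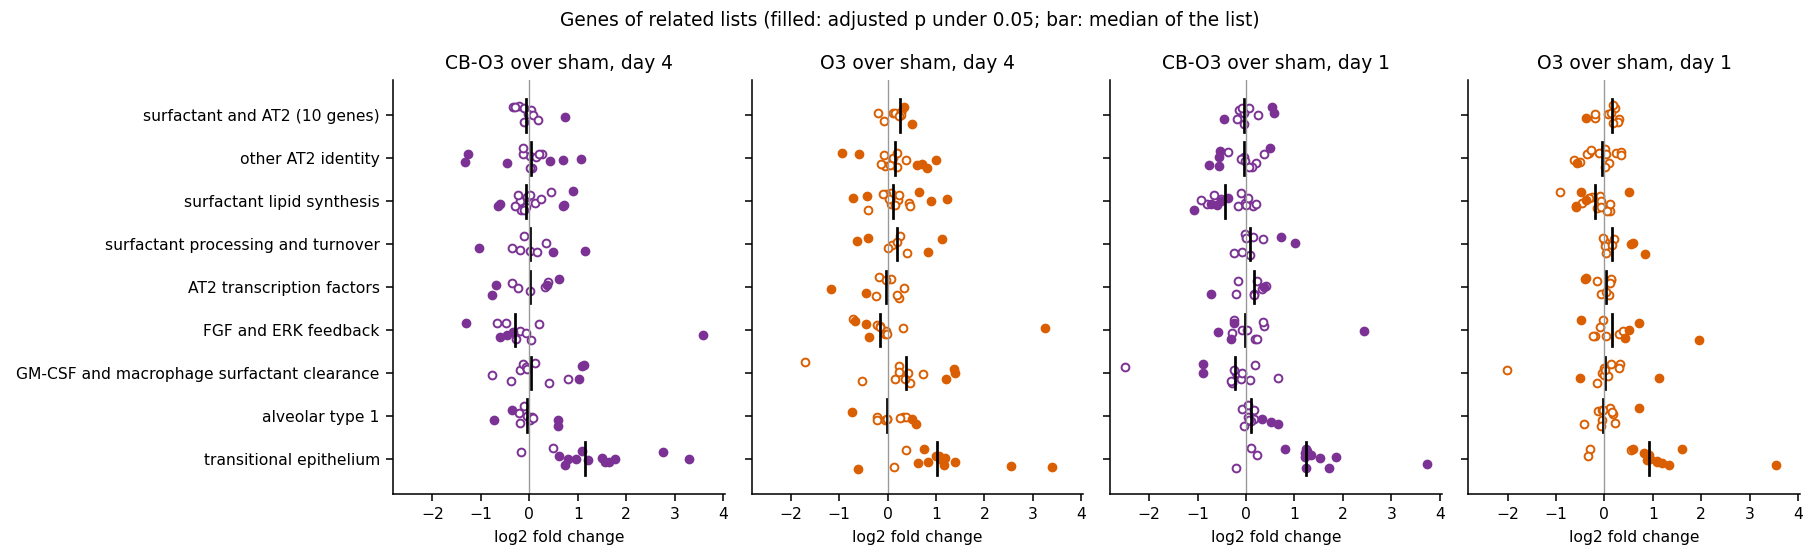
Log2 fold change over sham of each gene in 9 lists (rows), for CB-O3 and O3 at day 4 and day 1 (panels). Filled points passed the test and bars are list medians; the transitional epithelium bars lie between 0.93 and 1.23, and those of the 10 surfactant and type 2 genes between −0.06 and 0.26.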

How the data were processed

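Messenger RNA libraries (TruSeq Stranded mRNA, paired 51-base reads) were quantified by the authors with Salmon 1.1.0 per the labels, and the submitters' processing notes name mm10, R 3.6.3 and DESeq2 without roles. In the deposited table, each gene has an estimated count that is not normalized, and 17.7% of the values are not whole. They were rounded. Library totals ran from 5135492 to 9718770 counts. Salmon divides reads between similar transcripts, so near-identical genes are uncertain. No source used here states length or strand options. GENCODE M21 (GRCm38) named 35505 identifiers and left 375 unnamed.

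edgeR 4.0.16 in R 4.3.3 fitted all 28 libraries with 1 mean per group (TMM factors 0.902 to 1.05, filterByExpr, robust quasi-likelihood F test), giving 14887 genes, 99.9% of counts, 20 residual degrees of freedom and a biological coefficient of variation of 15.7%. The 16 comparisons were each exposure against sham and against its parts, the interactions and the changes between days. P-values were adjusted over all genes (Benjamini-Hochberg, 0.05), and SE is the fold change divided by the square root of F. The fit was tested on simulated counts. Correlations used log2 CPM with a prior count of 2, group means removed, and 100000 permutations of libraries within groups, which cannot give a p below 1e-05. Groups came from titles, which also give the replicate numbers. Alternatives were other scalings, filters, limma-voom (limma 3.58.1), DESeq2 1.42.0, only the compared groups, a replicate block, and leaving out each library. A fit without 4 libraries that carried over 200 CPM of muscle and brown fat genes, and one with the club cell level as a covariate, were added after the data were seen.

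The 10 genes and the lists were chosen with earlier results of these data known. Besides the 10, up to 4 genes per list were named, those with the smallest p in CB-O3 or O3 against sham, plus the 8 genes most and 4 least like the mean of the 10. The libraries that stand apart were chosen after their values were seen.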

Additional observations from a re-analysis of the deposited data

Results flagged for a closer look

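Among the 10 genes, 2 of 40 groups of 4 libraries had a library far from the other 3, where chance flags about 1 in 20. Both were Lpcat1: the highest CB-O3 library of day 1 had 571 CPM (gap over range 0.881) and the highest CB library of day 1 had 605 CPM (0.887).

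Several differences over sham differed between days or between single and joint exposure, each by its own test in edgeR's fit over all genes. The O3 difference at day 4 minus that at day 1 was 0.48 for Lpcat1, 0.48 for Ppp1r14c, 0.61 for Fabp5, −0.995 for Prdx6, −1.20 for Cebpd and 1.07 for Csf2rb. The same change for CB-O3 was −0.71 for Acoxl, −0.81 for Adgrf5, −1.08 for Prdx6, 1.31 for Csf2rb and 1.43 for Chil3. The interaction of both exposures was −1.02 at day 4 for Abcg1. At day 1 it was −0.97 for Abcg1, −1.42 for Csf2rb and −1.41 for Chil3. Of these, the Prdx6 changes, the Csf2rb change with CB-O3 and the Csf2rb interaction at day 1 were called in every alternative run. The others were lost in at least 1.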

How the results depend on the processing

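No call changed its direction under any alternative. The Sftpd calls against sham held throughout. Of the 10 genes, O3 at day 1 had 1 called, but 0 with no filter on low counts, 0 without the 4 libraries rich in muscle and brown fat RNA, and 2 with only the compared groups, with DESeq2 or with the club cell level as a covariate. O3 at day 4 had 2, but 1 with no filter or with the covariate and 3 with DESeq2 or without the muscle-rich libraries. CB-O3 at day 1 had 3, but 4 with DESeq2, with only the compared groups or with the covariate. CB-O3 at day 4 had 1, but 2 with DESeq2 or with the covariate. CB at day 4 had 0, but 1 without the muscle-rich libraries. CB-O3 against O3 at day 4 had 0, but 1 with DESeq2, and CB-O3 against CB at day 4 had 5, but 1 with only the compared groups. The interaction had 0, but at day 4 3 with DESeq2 and at day 1 1 with DESeq2 or with only the compared groups. The O3 change between days had 1, but 0 with scaling without the 10 genes, no filter or the covariate. Against sham, DESeq2 called 5176 of all genes with CB-O3 and 3282 with O3 at day 4, and 3046 and 1920 at day 1. Counts over all genes also moved with the setting, as given further below, so a shift need not be particular to the 10 genes. The cause of these shifts was not tested.

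With 1 library left out, the count ran from 1 to 4 for CB-O3 at day 4, 1 to 3 for O3 at day 4, 0 to 1 for CB at day 4, 1 to 3 for CB-O3 at day 1, 0 to 1 for O3 at day 1, 0 to 4 for CB-O3 against O3 at day 4, 3 to 6 and 2 to 3 for CB-O3 against CB at days 4 and 1, 0 to 4 and 0 to 1 for the interaction at days 4 and 1, and 0 to 1 for the O3 change. In the other comparisons it stayed at 0. The fits without 1 library gave these ranges of calls over all genes. At day 4 they ran from 3909 to 5401 for CB-O3, 2109 to 2624 for O3 and 8 to 653 for CB. At day 1 they ran from 1771 to 2967 for CB-O3 and 904 to 1519 for O3. CB-O3 against O3 at day 4 ran from 0 to 2769. CB-O3 against CB ran from 4322 to 6293 at day 4 and 2534 to 4127 at day 1. The interaction ran from 0 to 2979 at day 4 and 56 to 471 at day 1, and the O3 change from 365 to 624.

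Whether replicate numbers pair libraries is not settled. Same-numbered libraries of different groups correlated at −0.25 to 0.48 in their deviations (42 pairs, median 0.04). Libraries with other numbers correlated at −0.37 to 0.30 (108 pairs, median −0.02). The 2 ranges largely overlap, and this comparison cannot exclude a pairing. With the replicate block, 0 of the 10 were called for O3 at day 1, 2 for the interaction at day 4 and 0 for the O3 change, and over all genes 154 for CB-O3 against O3 at day 4, 879 for the interaction at day 4 and 2 for sham between days.

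Over all genes, CB at day 1 gave 247 calls but 7 with only the compared groups, and CB at day 4 31 but 7 with those groups, 179 with DESeq2 and 18 with limma-voom. CB-O3 against O3 gave 0 but 475 at day 4 and 39 at day 1 with DESeq2, and, at day 4, 96 with limma-voom and 28 with a filter of 2 CPM in 3 libraries. CB-O3 at day 4 gave 5073 against sham and 5687 against CB, but 3175 and 2373 with only the compared groups. The interaction at day 4 gave 204, but 1039 with DESeq2 and 0 with only the compared groups, and at day 1 218, but 524 with DESeq2 and 898 with only the compared groups. CB between days gave 14, but 36 with DESeq2 and 2 with only the compared groups, and the O3 change 631, but 1125 with those groups.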

Other observations

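Marker lists of other cells, counted here once, moved in the same libraries as the 10 genes, and their part in the results above was not tested. Over all genes, 34.1% were called with CB-O3 and 20.7% with O3 at day 4. In CB-O3 and O3 at day 4 against sham, 3 and 5 of 9 club cell genes were lower and 1 was higher with CB-O3. Pon1 was at −1.47 ± 0.29 (adjusted p = 0.00042) and −1.70 ± 0.29 (adjusted p = 0.0002), and Scgb1a1, the club cell secretory protein gene, at −0.38 ± 0.25 (adjusted p = 0.25) and −1.05 ± 0.25 (adjusted p = 0.0033). Of 8 ciliated cell genes, 4 were higher and 1 lower with CB-O3 and 1 lower with O3. All 7 pan-epithelial genes with CB-O3 and 5 with O3 were higher, among them the adhesion gene Cdh1 at 0.62 ± 0.08 (adjusted p = 2.4e-06) and 0.59 ± 0.08 (adjusted p = 1e-05). All 10 cell cycle genes were higher in both groups, with list medians of 3.35 and 2.91. Of 7 T cell genes, 5 and 4 were lower, and of 6 erythrocyte genes, 5 and 3. Of 8 neutrophil genes, 1 passed with CB-O3 at day 4, higher, while all 8 were higher with CB at day 1, a comparison in which edgeR called 0 of the 10 surfactant and type 2 genes. The neutrophil sum of day 1 was uneven, at 988, 135, 4429 and 2402 CPM in CB libraries. Sham libraries ran from 46.4 to 244 CPM, so CB replicate 2 lay in the sham range. Of 5 skeletal muscle and brown fat genes, 1 (Ucp1) passed, lower, with CB-O3 and with O3 at day 1. Their summed level was over 200 CPM in CB-O3 replicate 3 and CB replicate 3 of day 4 and in O3 replicate 2 and sham replicate 2 of day 1, with 421, 229.6, 418 and 1075 CPM.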
